A study of Mus musculus with 5 samples.

Results

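The cytosolic ribosomal protein genes were examined in laser-captured intestinal epithelium, in 3 tumours of Apc1638N mice against 2 samples of normal intestine from wild-type mice. They were taken as all array genes whose platform annotation gives 1 symbol beginning with Rpl or Rps and a digit, or Rplp0, Rplp1, Rplp2 or Rpsa. Kinases of the Rps6k family (4 symbols) and 1 pseudogene symbol were left out. This gave 48 of the 12393 genes measured. By a list of places in the ribosome, 20 encode proteins of the small subunit and 22 proteins of the large subunit. That is only part of the list. In the small subunit, 9 of 14 listed symbols of the head and 11 of 18 of the body were measured. In the large subunit, 3 of 4 of the stalk, 1 of 2 of the Rpl11 particle, 4 of 8 of the exit tunnel and 14 of 32 others were measured. The rest were not among the genes with 1 symbol. A further 5 encode paralogues of such proteins. Rpl7l1 matched the symbol rule, is listed apart from the paralogues, and is not counted as a protein of the mature ribosome. Where a gene had several probe sets, the brightest over the 5 arrays stood for it, and the 48 genes have 100 probe sets in all.

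The tumour group was 3 intestinal tumours (tumours 16, 18 and 2) from male Apc1638N mice of 8 months on the C57Bl6/J strain. The wild-type group was 2 samples of normal intestinal epithelial cells (wild types 36 and 62) from male C57Bl6/J mice of the same age, kept under the same conditions. The Apc1638N allele is a germline truncation of Apc that is present in every cell of the animal, so the tumours were set against tissue of other mice and not against normal epithelium of the tumour-bearing mice. The labels name no gut region, and they leave unsaid whether the samples of a group are from different animals. The p-values therefore cover only the variation among these 5 samples, which may be technical.

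Each cytosolic ribosome joins a small subunit, which decodes the message, to a large subunit, which forms the peptide bonds, and each core protein is needed in about equal numbers. Messages of these genes begin with a terminal oligopyrimidine (TOP) tract, a C followed by a run of pyrimidines, through which their translation follows nutrient and mTOR signals. In the intestine, ribosome production is highest in the dividing cells of the crypt and is raised by Myc, a target of the Wnt pathway that Apc restrains.

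All arrays had medians between 6.81 and 6.87 on the log2 scale, and the median change over all genes was 0.00. The 18 spike-in control probe sets, bacterial and phage sequences added in fixed amounts, had a median difference of 0.00 between tumours and wild types, but were higher in wild type 36 than in wild type 62 by a median of 0.66. The signal at the 3′ end of beta-actin exceeded that at the 5′ end by 3.999 to 4.25 in tumours and by 2.51 to 3.32 in wild types. The summed signal of the 6 epithelial markers was 14.58 to 14.97 in tumours and 14.35 to 14.45 in wild types (log2). Of these markers Krt18 and Krt19 rose by 2.44 and 1.20, Vil1 fell by 1.26 (adjusted p = 0.0117), and Epcam was lower in every tumour than in either wild type, with a change of -0.48 that did not pass. Krt8, the brightest of the list, was higher in every tumour, with a change of 0.42 that did not pass (adjusted p = 0.0793 in limma). Cdh1 differed by 0.26 and did not pass. The summed signal of 6 fibroblast markers was 10.88 to 13.23 in tumours and 9.75 to 10.18 in wild types. None of the 6 was below the 25th percentile (6.03 to 6.06) on every array. Lum was dim, with 5.82, 6.28 and 5.81 in tumours 16, 18 and 2 against 5.49 and 5.50 in wild types. Of the 6, Dcn rose by 2.60 (adjusted p = 0.0363 in limma). Col3a1 (2.32), Col1a2 (2.32), Col1a1 (1.80), Lum (0.47) and Pdgfra (0.09) did not pass. The sum of 4 smooth muscle markers was 10.50 to 10.70 in tumours and 9.56 to 9.91 in wild types. Of these Acta2, the brightest, rose by 1.22 (adjusted p = 0.0206 in limma), while Tagln (0.29), Myh11 (-0.01) and Des (-0.04) did not pass. The sums of 8 leukocyte markers (9.80 to 10.27 in tumours, 9.996 to 10.06 in wild types) and 4 endothelial markers (8.90 to 9.11 in tumours, 8.91 to 9.08 in wild types) overlapped. In each of these lists 1 marker was below the 25th percentile on every array. Within the leukocyte list Ptprc fell by 1.94 (adjusted p = 0.00556) and Cd3g by 1.41 (adjusted p = 0.00817), while Lyz2 was higher in every tumour, with a change of 1.67 that did not pass (adjusted p = 0.0502). The part of the 3′ bias and of RNA from other cells in the results was not tested, and in bulk samples a change in the number of cells of a type and a change in RNA per cell cannot be told apart.

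Most ribosomal protein genes were higher in tumours. Of the 48 genes, 36 rose (limma, Benjamini-Hochberg adjusted p under 0.05 over all genes), 0 fell and 12 did not pass, where 11.3% of all genes rose and 10.5% fell. The median log2 change was 0.71, a 1.64-fold difference in signal, changes ran from -0.08 to 1.59, and 47 of 48 were positive, against 51.4% of all genes. For 45 of the 48 genes the lowest tumour lay above the highest wild type, which held for 27% of all genes. The reverse held for 1 gene, Rpl39l, and for 23.7% of all genes. Among the 42 measured genes of the core subunits the lowest tumour lay above the highest wild type for all 42, and 34 of them rose. A change of at least 2-fold was reached by 14 of the 48, and all 14 were called, against 3.45% of all genes that rose at least 2-fold.

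The group median was 11.87, 11.92 and 11.98 in tumours 16, 18 and 2, against 11.09 and 10.91 in wild types 36 and 62. The 3 tumours lay close together and the gap between the groups was wider than the gap within either. Relative to the wild-type mean of each gene, the median member lay higher by 0.68 in tumour 16, 0.80 in tumour 18 and 0.67 in tumour 2. Tumour 18 held the highest tumour value for 28 of the 48 genes and tumour 2 the lowest for 28. Within wild type, array 36 exceeded array 62 for 33 of 48 genes, by a median of 0.14, while the median over all genes was 0.00.

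**Figure D1:**
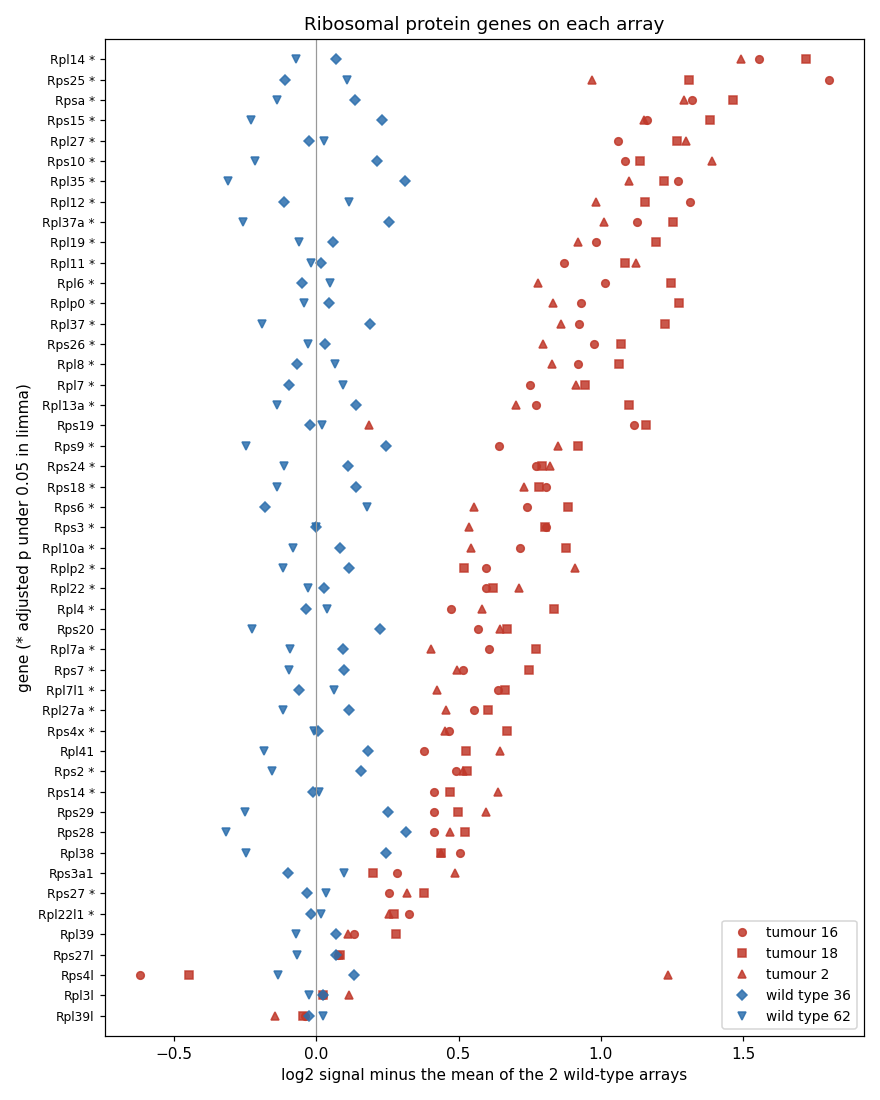
Log2 signal of each of the 48 genes on each array, given as the distance from the mean of the 2 wild-type arrays (red, 3 tumours; blue, 2 wild types), ordered by the mean change, with an asterisk for an adjusted p under 0.05 in limma. For 45 genes all 3 tumours lie to the right of both wild types, and the exceptions at the bottom are the paralogues Rps4l, Rpl3l and Rpl39l.

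The largest change was that of Rpl14, a large subunit protein. Its signal was 8.33, 8.49 and 8.27 in tumours 16, 18 and 2, against 6.84 and 6.70 in wild types 36 and 62. The groups were far apart, with a log2 change of 1.59 (SE 0.09, a 3.01-fold difference, adjusted p = 0.00498 in limma). Rpl27, another protein of the large subunit, had 10.64, 10.85 and 10.88 in tumours and 9.56 and 9.61 in wild types, a change of 1.21 (SE 0.09, adjusted p = 0.00582). Its other probe sets changed by 1.40 and 1.63, and all 3 rose. Rpl37a, a zinc-binding protein of the large subunit, had 12.71, 12.83 and 12.59 in tumours against 11.84 and 11.32 in wild types. The spread in wild type was wider here, and the change of 1.13 had an SE of 0.18 (adjusted p = 0.0226).

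The exit tunnel is the channel by which the growing protein leaves the large subunit, and 4 genes of proteins around it were measured, of which 3 rose. Rpl35, which lies at the mouth of the tunnel, had 13.14, 13.09 and 12.97 in tumours against 12.18 and 11.56 in wild types, a change of 1.20 (SE 0.20, adjusted p = 0.0258). Rpl19 had 12.46, 12.67 and 12.40 in tumours against 11.54 and 11.42 in wild types, a change of 1.03 (SE 0.10, adjusted p = 0.00934). Tumour values were close together for both genes, and the wild types differed more for Rpl35 than for Rpl19. Rpl37 changed by 1.002 and also rose. Rpl39, which lines the tunnel itself, differed by 0.18 and did not pass (adjusted p = 0.202), although its tumours (8.02, 8.17 and 8.00) all lay above its wild types (7.96 and 7.82).

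The stalk of the large subunit recruits the elongation factors, and all 3 of its genes that were measured rose. Rpl12, at the base of the stalk, had 8.06, 7.90 and 7.73 in tumours against 6.63 and 6.86 in wild types, a change of 1.15 (SE 0.13, adjusted p = 0.0115). Rplp0, which anchors the stalk, had 12.12, 12.47 and 12.02 in tumours against 11.23 and 11.15 in wild types, a change of 1.01 (SE 0.15, adjusted p = 0.0199). Rplp2, one of the acidic proteins at its tip, showed the smallest of the 3 changes, 0.67 (SE 0.15, adjusted p = 0.0473 in limma). It had 11.68, 11.61 and 11.998 in tumours against 11.20 and 10.97 in wild types. With adjustment over all probe sets its probe set did not pass (adjusted p = 0.0537 in limma). Rplp1, its partner at the tip, was not among the genes with 1 symbol. Rpl11 forms a particle with Rpl5 and a small ribosomal RNA and, when free of ribosomes, binds the Trp53 inhibitor Mdm2. Its signal was 11.09, 11.31 and 11.35 in tumours against 10.24 and 10.21 in wild types, a change of 1.03 (SE 0.09, adjusted p = 0.00812).

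In the small subunit, 15 of 20 genes rose and 0 fell, with a median change of 0.72, and in the large subunit 19 of 22 rose and 0 fell, with a median of 0.90. The difference between the subunits was not tested. In the body of the small subunit 10 of 11 genes rose, with a median of 0.59. Rpsa, which sits where the message leaves the subunit and is also known as a laminin receptor, led them with 13.13, 13.27 and 13.10 in tumours against 11.95 and 11.67 in wild types. Its change was 1.36 (SE 0.11, adjusted p = 0.00655), and the gap between the groups exceeded the spread within either. Rps6, the protein phosphorylated by the S6 kinases, had 8.17, 8.32 and 7.99 in tumours against 7.25 and 7.61 in wild types, a change of 0.73 (SE 0.16, adjusted p = 0.0422). Its other probe set, with a mean signal of 5.09, differed by 0.03 (adjusted p = 0.817 over probe sets in limma). With the mean of its probe sets Rps6 changed by 0.38 and did not pass (adjusted p = 0.0595 in limma). Rps2, at the entry of the message channel, had 13.24, 13.28 and 13.26 in tumours against 12.90 and 12.59 in wild types, a change of 0.51 (SE 0.10, adjusted p = 0.0369).

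In the head of the small subunit 5 of 9 genes rose, with a median of 0.77. Rps25, needed by the internal ribosome entry sites of some viruses, had 9.77, 9.27 and 8.93 in tumours against 7.86 and 8.07 in wild types, a change of 1.36 with a wide SE of 0.27 (adjusted p = 0.0367). Tumour 16 was the highest and tumour 2 the lowest, and even tumour 2 lay above both wild types. Rps15, near the decoding centre, had 12.23, 12.46 and 12.23 in tumours against 11.30 and 10.84 in wild types, a change of 1.23 (SE 0.17, adjusted p = 0.0170). Rps10, which is ubiquitinated when ribosomes collide, had 11.84, 11.90 and 12.15 in tumours against 10.97 and 10.54 in wild types, a change of 1.20 (SE 0.17, adjusted p = 0.0184). Both showed close tumours and wild types that lay further apart.

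**Figure D2:**
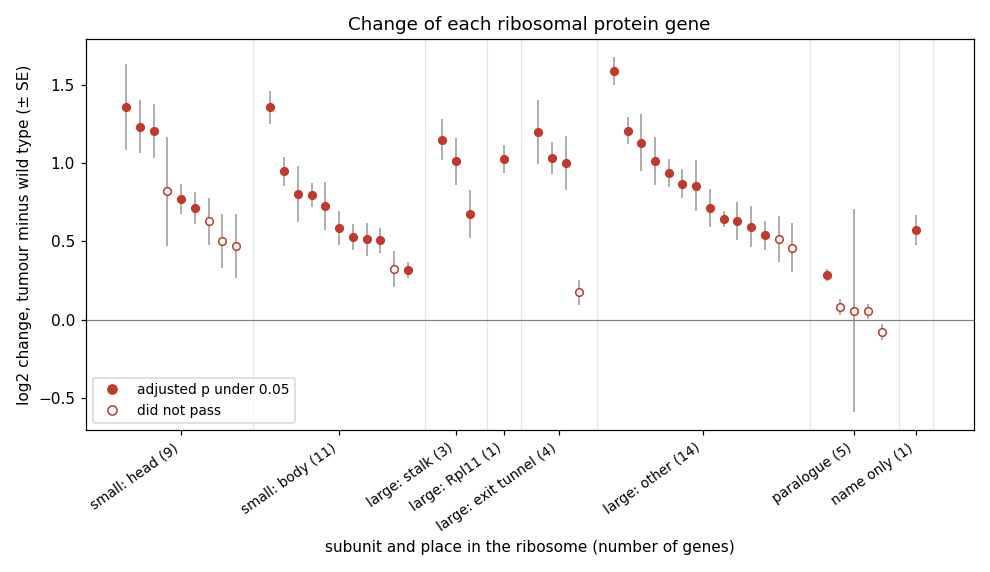
Log2 change (tumour minus wild type) of each gene with limma's standard error as a bar, grouped by subunit and place in the ribosome, with filled points for an adjusted p under 0.05. All 42 measured genes of the small and large subunits lie above 0, while 4 of the 5 measured paralogues lie between -0.08 and 0.08.

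The 8 core genes that did not pass were Rps19, Rps20, Rpl41, Rps29, Rps28, Rpl38, Rps3a1 and Rpl39. They are named here because they complete the count, after their values were seen. Rps19, mutated in human Diamond-Blackfan anaemia, had 11.90, 11.94 and 10.97 in tumours against 10.76 and 10.80 in wild types. Tumour 2 was close to wild type for this gene while tumours 16 and 18 were far above it, so the change of 0.82 had an SE of 0.35 (adjusted p = 0.183). Without tumour 2 the change of Rps19 was 1.14 (adjusted p = 0.00941 in limma), but leaving out the lowest tumour must raise the change. Without tumour 16 or tumour 18 it was 0.67 and 0.65 and did not pass (adjusted p = 0.392 and 0.383 in limma). Without wild type 36 or wild type 62 the change was 0.80 and 0.84. Rpl41, the shortest ribosomal protein, had 13.38, 13.52 and 13.64 in tumours against 13.18 and 12.81 in wild types, a change of 0.52 (SE 0.15, adjusted p = 0.0770). Its other 3 probe sets changed by 0.93, 0.77 and 1.15, and each of those rose (adjusted p over probe sets 0.0376, 0.0415 and 0.00628 in limma).

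Rps28, a protein of the small subunit's head, had 13.37, 13.47 and 13.42 in tumours against 13.27 and 12.63 in wild types. The tumours differed little, and wild type 36 was nearly as high as they were while wild type 62 was well below, which gave a change of 0.47 (SE 0.20, adjusted p = 0.193). Wild type 36 lay above wild type 62 by over 0.3 in 5 of the 8 core genes that did not pass and in 7 of the 34 that rose. These counts do not take in how near wild type 36 lay to the tumours. In Rps6, which also rose, wild type 62 was the higher by more than 0.3. Probe sets ending in _x_at or _s_at, in which probes can match other transcripts, showed a median difference of 0.37 between wild types 36 and 62, against 0.06 for those ending in _a_at and -0.01 for the plain _at probe sets. Of the 48 genes, 17 were represented by an _x_at or _s_at probe set. The part of this difference in the calls was not tested beyond the alternative that leaves those probe sets out.

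The 5 paralogues had a median change of 0.06, and 1 of them rose. Rpl22l1, which can take the place of Rpl22 in the large subunit, had 10.45, 10.39 and 10.38 in tumours against 10.10 and 10.14 in wild types. Its change of 0.29 was small but passed (SE 0.04, adjusted p = 0.0169). With the trend and robust settings of eBayes, Rpl22l1 did not pass (adjusted p = 0.0641 in limma). Rpl22 itself changed by 0.64. Rps27l, a relative of Rps27 that is induced by Trp53, had 10.42, 10.43 and 10.43 in tumours against 10.42 and 10.28 in wild types, a change of 0.08 (adjusted p = 0.344). Its other probe sets differed by 0.11 and 0.16, and none of the 3 passed, while Rps27 changed by 0.32 and rose. These pairs were not tested against each other.

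The other paralogues had low signal, and no change of theirs passed. Rpl3l, the relative of Rpl3 found in heart and skeletal muscle, had 5.66, 5.66 and 5.75 in tumours against 5.66 and 5.62 in wild types (change 0.05, adjusted p = 0.465). Rpl39l, the relative of Rpl39 found in testis, had 5.44, 5.43 and 5.33 in tumours against 5.45 and 5.50 in wild types (change -0.08, adjusted p = 0.350). Both were dimmer on each array than 6.03, the lowest of the arrays' 25th percentiles. Rps4l, a relative of Rps4x, had 5.64 and 5.81 in tumours 16 and 18 and 7.49 in tumour 2, against 6.39 and 6.12 in wild types. The single high value in tumour 2 made the groups overlap and gave a change of 0.06 with an SE of 0.65 (adjusted p = 0.965). Rpl7l1, which is listed apart from the paralogues, had 8.27, 8.30 and 8.06 in tumours against 7.57 and 7.69 in wild types. It rose by 0.58 (SE 0.10, adjusted p = 0.0245 in limma), and its other probe set rose by 1.03 (adjusted p over probe sets 0.00845 in limma).

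The start regions of the genes are shown because the TOP tract is the sequence feature the family is known for. RefSeq promoter windows (GRCm38.p6, 250 bases before to 50 after the annotated start) were found for 42 of the 48 genes. A C followed by at least 4 pyrimidines exactly at the annotated start was held by 8 of 37 core genes with a window (21.6%), against 3.03% of the array's genes with a window and 3.01% of all genes in the table. The windows below reach 20 bases either side of the start, and capitals mark the pyrimidine tract from the first transcribed base. The genes shown are Rpl14, with the largest change, Rps10 and Rpl35, with changes above 1, and Rplp2 and Rps6. Rps18 (change 0.77), Rps27 (0.32) and Rpl38 (0.46, which did not pass) also held the tract at the start and are not shown.
Rpl14 (chr9:120571497-120571536, plus strand): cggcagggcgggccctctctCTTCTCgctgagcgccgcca
Rps10 (chr17:27635225-27635264, minus strand): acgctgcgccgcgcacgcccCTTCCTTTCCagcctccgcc
Rpl35 (chr2:39005112-39005151, minus strand): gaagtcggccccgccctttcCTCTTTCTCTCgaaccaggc
Rplp2 (chr7:141447631-141447670, plus strand): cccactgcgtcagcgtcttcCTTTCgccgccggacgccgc
Rps6 (chr4:86857348-86857387, minus strand): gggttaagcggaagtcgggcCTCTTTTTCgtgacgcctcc

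With the tract allowed to begin within 10 bases either side of the start, 23 of 37 core genes held it (62.2%), as did 36.9% of array genes and all 4 paralogues with a window. The motif CCGGAAG, bound by factors of the ETS family such as Gabpa, was found on either strand in 19 of 37 core genes (51.4%), against 16.3% of array genes and 9.93% of all genes in the table. It lies near the start in Rpl6, Rpl11 and the paralogue Rps27l, with the motif in capitals.
Rpl6 (chr5:121204481-121204520, plus strand): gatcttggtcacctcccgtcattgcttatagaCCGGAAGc
Rpl11 (chr4:136053374-136053413, minus strand): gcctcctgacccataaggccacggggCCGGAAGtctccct
Rps27l (chr9:66946066-66946105, plus strand): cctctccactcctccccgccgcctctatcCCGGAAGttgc

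The motif CACGTG, the E-box that Myc can bind, was in 4 of 37 core genes (10.8%), the same share as among array genes (10.8%). TATAAA was in 5 of 37 (13.5%), against 11.9% of array genes. Within the core, the 8 genes with a tract at the annotated start had a median change of 0.75 and the 29 without had 0.80. With the tract allowed within 10 bases, the 23 genes that held it had a median of 0.77 and the 14 without had 1.01. The 5 genes with TATAAA had a median of 0.51 and the 32 without had 0.81. The 19 genes with CCGGAAG had a median of 0.77 and the 18 without had 0.80, and the 4 genes with CACGTG had 0.94 against 0.73 in the 33 without. These shares and medians count a gene as holding a motif if any of its windows does. They were not tested, and annotated starts can lie some bases from the start in use.

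Probe sets of the same gene were not called in opposite directions, but their changes often differed in size. Of the 100 probe sets of the 48 genes, 58 rose and 0 fell (adjusted over all probe sets), where 9.58% of all probe sets rose and 8.72% fell. Rpl7a, Rplp2 and Rps9 rose in the fit over genes, but no probe set of theirs passed in this fit. Among the 23 genes with more than 1 probe set, all probe sets rose in 5, and in 12 the lowest and highest change lay more than 0.5 apart. Those of Rps10, for example, ran from 0.27 to 1.30. The 10 probe sets with a mean signal under 6.03, the lowest of the arrays' 25th percentiles, had a median change of 0.03 and none passed. A second probe set of Rpsa was among them, with a change of 0.01 (adjusted p = 0.880 over probe sets in limma) beside the bright one that rose. Among the 6 probe sets of Rps18, a protein of the small subunit's head, 3 rose by 0.77, 1.05 and 1.002, and the other 3, with mean signals from 5.12 to 6.76, differed by -0.04 to 0.05.

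**Figure D3:**
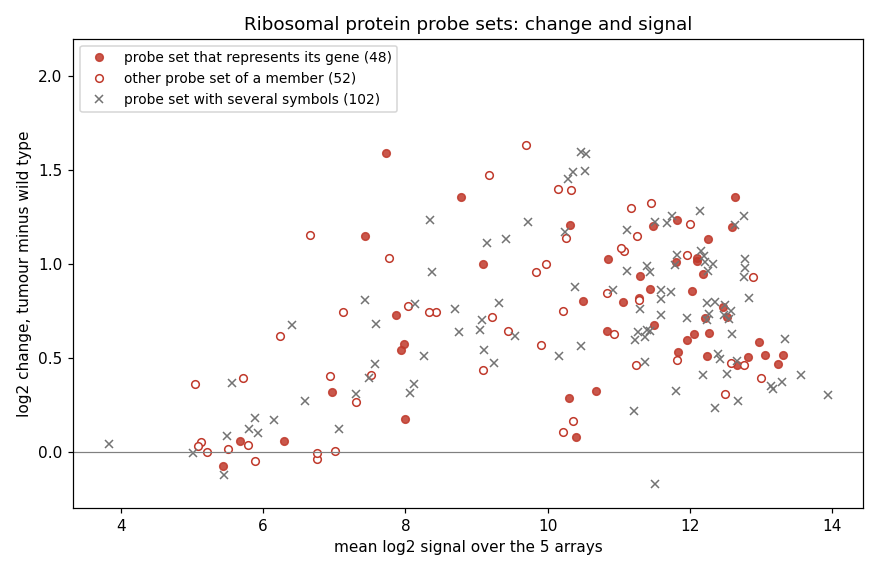
Log2 change (tumour minus wild type) against mean log2 signal over the 5 arrays for the 48 probe sets that represent a gene (filled), the other probe sets of those genes (open) and 102 probe sets whose annotation lists a ribosomal protein symbol beside others (crosses). The 10 probe sets with a mean signal under 6.03, the lowest of the arrays' 25th percentiles, have a median change of 0.03. The 9 filled points above a signal of 12.5 have a median of 0.52.

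The size of the change varied with signal, without a single direction. The 11 genes with a mean signal below 9 had a median change of 0.54, and the 8 between 9 and 11 had 0.72. The 10 genes with a mean signal between 11 and 12 had a median change of 0.84, and the 10 between 12 and 12.5 had 0.81. The 9 genes above 12.5 had a median of 0.52, with 5 of them called. Over the 42 core genes, Spearman's rho between change and mean signal was -0.23. It was 0.096 over all 48 genes and 0.31 over their 100 probe sets, and all of these describe genes that share the same 5 arrays. Signals of different probe sets are not amounts of transcript, and whether the brightest probe sets were limited by the range of the scanner was not tested. In a fit restricted to probe sets at or above the 80th percentile of brightness, 32 of the 38 genes left rose, where 24.1% of the 3152 genes in that fit rose.

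A further 102 probe sets listed a ribosomal protein symbol together with other symbols and were not assigned to a gene. Of these, 66 rose and 0 fell, with a median change of 0.70, where 9.58% of all probe sets rose and 8.72% fell. Of the 77 with a mean signal of at least 9, 58 rose and the median was 0.78, and of the 25 dimmer ones 8 rose and the median was 0.36. The tumours lay above both wild types for 91 of the 102, as they did for 25.3% of all probe sets. No gene is named from these probe sets.

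Fau, which encodes a small subunit protein fused to a ubiquitin-like domain, had 11.58, 11.64 and 11.58 in tumours against 11.79 and 11.46 in wild types. All tumour values lay between the wild types, with a change of -0.03 (SE 0.11, adjusted p = 0.872).

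Other genes known for TOP messages had a median change of 0.72 over 18 measured, of which 9 rose and 0 fell, where 11.3% of all genes rose and 10.5% fell. Hnrnpa1, an RNA-binding protein of splicing, had 10.18, 9.71 and 9.24 in tumours against 8.18 and 8.33 in wild types, a change of 1.46 (SE 0.30, adjusted p = 0.0386). Nap1l1, a histone chaperone, had 8.66, 8.74 and 8.74 in tumours against 7.35 and 7.28 in wild types, a change of 1.40 (SE 0.05, adjusted p = 0.00416). Gas5, a noncoding host of small nucleolar RNAs, had 9.27, 9.20 and 8.94 in tumours against 7.75 and 8.22 in wild types, a change of 1.15 (SE 0.19, adjusted p = 0.0234). For all 3 genes the groups were apart. Among the 3 brightest of the list, Pabpc1, a poly(A)-binding protein, rose by 0.92 (adjusted p = 0.0183), while the changes of Eef1a1 (0.15), an elongation factor, and Tpt1 (0.17) did not pass.

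Among 13 genes of chaperones and nuclear import of ribosomal proteins, 4 rose and 0 fell, with a median change of 0.40, beside the same shares of 11.3% and 10.5% over all genes. Grwd1, whose yeast relative is a chaperone of the Rpl3 protein, had 9.35, 9.29 and 8.87 in tumours against 7.28 and 7.54 in wild types, a change of 1.76 (SE 0.18, adjusted p = 0.0101). Kpnb1, an import receptor, had 9.74, 9.86 and 9.43 in tumours against 8.70 and 8.98 in wild types, a change of 0.84 (SE 0.17, adjusted p = 0.0366). Nap1l1, which is in this list too, and Bccip (0.56) were the others that rose.

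Of 10 measured genes that control the translation of TOP messages, 2 rose and 1 fell, with a median of 0.09, which is near the shares over all genes (11.3% rose and 10.5% fell). Eif4ebp1, which holds back the cap-binding protein until mTOR phosphorylates it, had 9.33, 9.19 and 9.50 in tumours against 7.64 and 7.79 in wild types, a change of 1.62 (SE 0.11, adjusted p = 0.00561). Eif4e, the cap-binding protein, had 8.74, 8.84 and 8.62 in tumours against 8.02 and 8.15 in wild types, a change of 0.64 (SE 0.08, adjusted p = 0.0153). Rheb, the activator of mTOR, was lower in every tumour (8.69, 8.77 and 8.74) than in the wild types (9.17 and 9.45) and fell by 0.57 (SE 0.10, adjusted p = 0.0245). Mtor itself differed by -0.04 and Larp1, which binds TOP messages, by 0.34, and neither passed.

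Of 5 measured genes of the checkpoint that senses free ribosomal proteins, 1 fell and 0 rose, with a median of 0.01, where 10.5% of all genes fell and 11.3% rose, so the count says little about the list. Cdkn1a, the cell cycle inhibitor induced by Trp53, had 9.86, 9.93 and 10.10 in tumours against 10.42 and 10.57 in wild types and fell by 0.53 (SE 0.09, adjusted p = 0.0273). Mdm2, the partner of free Rpl11, differed by 0.17 and did not pass (adjusted p = 0.318).

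**Figure D4:**
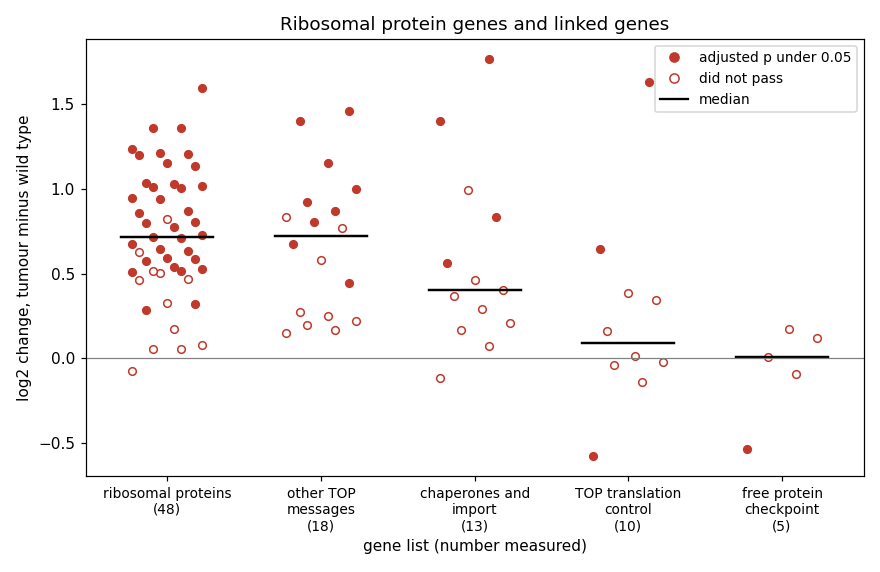
Log2 change (tumour minus wild type) of the 48 ribosomal protein genes and of the measured genes of 4 linked lists, with a line at each median and filled points for an adjusted p under 0.05. Medians were 0.71 for ribosomal proteins, 0.72 for other TOP messages, 0.40 for chaperones and import, 0.09 for TOP translation control and 0.01 for the checkpoint of free ribosomal proteins.

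The calls rested on few arrays. Of the 48 genes, 7 were called higher without tumour 16, 14 without tumour 18 and 26 without tumour 2, where 2.9%, 4.28% and 10.4% of all genes rose. The count was 11 without wild type 36 and 0 without wild type 62, where 1.96% and 0% of all genes rose. The fit without wild type 62 leaves 1 wild-type array. In it the median change of the 48 genes was 0.64, with 46 positive, and the median over all genes was 0.00. Many probe sets of this series carry exactly tied values within a group, and the effect of these ties on the estimated spread was not tested on its own. With tied probe sets left out, the same 5 fits, in the same order, called 28, 30, 37, 31 and 21 of 47 genes, where 10.6%, 12.2%, 19.2%, 9.47% and 9.49% of genes rose. All 42 core genes kept a positive change in each of these fits.

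In the fits without tied probe sets, 19 genes kept their call whichever array was left out. In the large subunit these were Rpl6, Rpl7, Rpl8, Rpl11, Rpl12, Rpl14, Rpl19, Rpl22, Rpl27, Rpl35, Rpl37a and Rplp0. In the small subunit they were Rps3, Rps10, Rps15, Rps18, Rps24, Rps26 and Rpsa. With all probe sets kept, no gene was called in all 5 fits. Rpl14 and Rpsa were called in 4 of the 5, and both lost their call without wild type 62 (adjusted p = 0.0530 and 0.0529 in limma).

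With all 5 arrays, quantile normalization called 41 of 48 genes (13.1% of all genes rose), median centring 37 (11.7%), trend and robust settings 33 (11.4%), array weights 35 (11.5%) and the mean of a gene's probe sets 35 (12.3%). A filter at the 40th percentile called 37 of 45 (16.8%), leaving out probe sets of shared targets 32 of 43 (9.87%), and leaving out tied probe sets 38 of 47 (18%). The dimmest probe set of each gene gave 23 of 48 (6.64%), and centring on the spike-in controls, tried after seeing the data, gave 17 (5.2%).

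**Figure D5:**
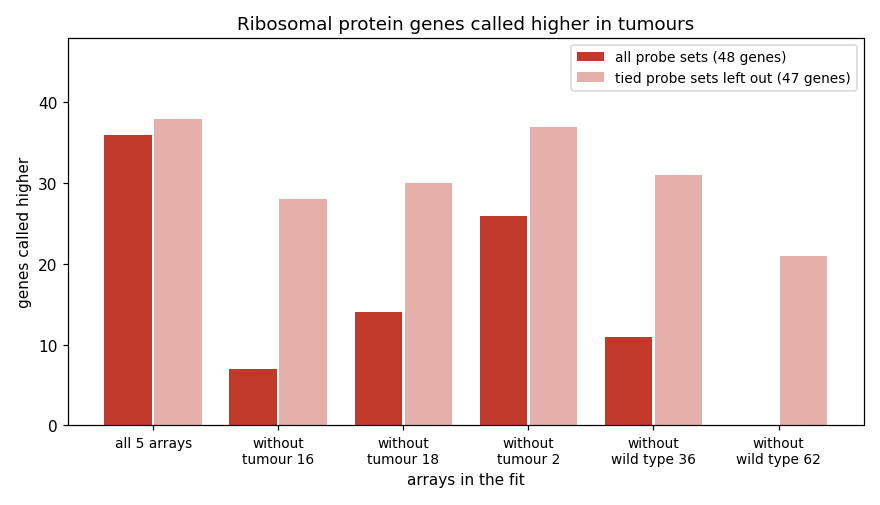
Number of ribosomal protein genes called higher in tumours (adjusted p under 0.05 in limma) with all 5 arrays and with 1 array left out, for all probe sets (dark, 48 genes) and with tied probe sets left out (light, 47 genes). With all arrays 36 and 38 genes were called, and without wild type 62 the counts were 0 and 21.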

How the data were processed

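Expression was measured on 5 Affymetrix arrays, 3 of Apc1638N tumours and 2 of wild-type intestine. Per the labels' protocols, RNA of laser-captured cells was purified on RNeasy Mini columns, with a DNase step, and labelled with biotin by a small-sample protocol. The authors deposited log2 signals for 22690 probe sets, made with the R package affy per the submitters' processing notes. How they were summarised and normalized is not stated here by label or header. That they are log2 was judged by their range (3.38 to 14.3), and they were used as deposited.

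The 64 control probe sets were set aside. Gene symbols were those of the GEO annotation of the platform, with 1 symbol for 20380 probe sets. The test was limma's (version 3.58.1, R 4.3.3; a linear model with group as its term, moderated by eBayes, two-sided, 3 residual degrees of freedom), with Benjamini-Hochberg adjustment over all 12393 genes or 22626 probe sets and a threshold of 0.05. All p-values of genes are limma's. The 5 arrays can be split in 10 ways, so an exact permutation test of 1 value cannot go below p = 0.1. Changes are tumour minus wild type in log2 with limma's moderated SE. The steps were tested on simulated data. A probe set was called tied if any 2 arrays of a group had the same value (6864 probe sets).

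Members and gene lists were chosen with earlier results of these data known. Genes given with values on every array were the 10 called members with the largest rise, the 3 of highest signal, all paralogues, Rpl7l1, and Rplp0, Rplp2, Rpl11, Rps6 and Rpsa, with up to 3 called genes of each linked list or, with none called, the brightest 2. Any other gene named was picked with its values in view. Alternatives were other scalings, filters, probe set choices and eBayes settings, array weights (statmod 1.5.0), and leaving out arrays. Sequences are RefSeq's, of GRCm38.p6. The array table names no genome build.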

Additional observations from a re-analysis of the deposited data

How the results depend on the processing

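With all 5 arrays, the count of 36 genes called higher stayed within 32 and 41, and the median change within 0.66 and 0.78, under quantile normalization, median centring, filters at the 40th and 80th percentile, trend and robust settings, array weights, the mean of all probe sets, and leaving out tied probe sets or those of shared targets. Taking the probe set of lowest mean gave 23 genes and a median of 0.60, and asking for at least 2-fold gave 14. Centring on probe sets that list no ribosomal protein gave 37, and centring on the spike-in controls gave 17 with a median of 0.77. Both were chosen after seeing the data, and in the spike-in fit limma gave all genes 1 common variance. Leaving out 1 array gave 0 to 26 genes and medians of 0.64 to 0.79, or 21 to 37 genes without tied probe sets. No gene was called lower except Rps4l, at -0.53 without tumour 2 and tied probe sets. A fit without a wild type assumes that the other varies like the tumours. Core genes had positive changes in every setting except Rps20 (shared targets left out) and Rps4x (lowest mean). No paired analysis was possible because the groups share no replicate numbers. The number of arrays, and signal over background for dim probe sets, limit the precision.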
